A study of Mus musculus with 47 samples.

Results

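The 9 genes described here encode proteins of the brain extracellular matrix: the 4 lecticans aggrecan (*Acan*), brevican (*Bcan*), neurocan (*Ncan*) and versican (*Vcan*), the tenascins R (*Tnr*) and C (*Tnc*), and the link proteins *Hapln1*, *Hapln2* and *Hapln4*. They were taken by gene symbol because their proteins assemble with one another, and the rule used no measured value. All 9 members were present among the 23393 genes of the acute table and the 21034 genes of the chronic tables. All 9 also passed the filters on low values, which left 14463 acute and 17054 chronic genes for testing.

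Lecticans are chondroitin sulfate proteoglycans whose one end binds hyaluronan and whose other end binds tenascins. Link proteins hold the lectican to hyaluronan, and trimers of tenascin-R tie several lecticans together, which gives the net that surrounds some neurons and the matrix at nodes of Ranvier. In the adult brain *Hapln2*, also called Bral1, is made by oligodendrocytes and its protein is found at the nodes of myelinated fibers. *Tnr* is made by oligodendrocyte lineage cells and some neurons, while *Bcan* and *Ncan* are made largely by astrocytes and neurons. *Vcan* has isoforms made by oligodendrocyte progenitors, and *Tnc* rises in many tissues after injury.

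RNA of microdissected brain tissue from wild type C57BL/6 mice was measured in 47 libraries, after cuprizone, a copper chelator given in the diet that injures oligodendrocytes, or without it. In the acute corpus callosum, the large white matter tract between the hemispheres, 3 libraries followed 3 weeks of cuprizone, 3 followed 5 weeks with 1 week of recovery, and 1 came from a naive mouse of 2 months. In the chronic experiment the groups were naive at 8 months, 12 weeks of cuprizone, and 12 weeks with 4, 8 or 12 further weeks of recovery, with 12 libraries from corpus callosum, 13 from hippocampus and 15 from cortex. By the labels the acute naive mouse was female, and each acute cuprizone group held 1 female and 2 males. Chronic groups held 2 to 4 libraries of mixed sex, except the 12 + 12 week groups, which were female only. The methods call the naive mice age-matched, but feeding began in young adults, which by the schedule makes 12-week mice younger than naive mice of 8 months and brings 12 + 12 week mice near that age. Age therefore cannot be told apart from cuprizone at 12 weeks, nor from recovery against 12 weeks. By the same schedule the acute cuprizone mice were older than the acute naive mouse. Age therefore cannot be told apart from cuprizone there either, and sex was unbalanced. The labels number the replicates and do not say that each is a separate mouse, so p-values measure the spread between these samples. By the methods, cortex and hippocampus were dissected along with the chronic callosum, so libraries of different regions may share a mouse. The fit treated all libraries as independent, which limits p-values of comparisons between regions.

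Each lectican gene sits next to a link protein gene, with 0 protein-coding genes between them. By the GRCm38 annotation *Bcan* (chr3:87987531-88000230, minus strand) and *Hapln2* (chr3:88021750-88027583, minus strand) are 21519 bases apart. *Ncan* (chr8:70093085-70120873, minus strand) and *Hapln4* (chr8:70083457-70090862, plus strand) are 2222 bases apart, and *Vcan* (chr13:89655312-89742509, minus strand) and *Hapln1* (chr13:89539796-89611652, plus strand) 43659 bases. *Acan* (chr7:79053483-79115099, plus strand) ends 2 bases from *Hapln3*, another link protein gene, on the opposite strand, so that reads at that end could be shared if strand was not used in counting. *Tnr* (chr1:159523769-159931729, plus strand) and *Tnc* (chr4:63959785-64047015, minus strand) stand apart.

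The sequences before the start of *Hapln2*, *Tnr* and *Bcan* are given because these 3 genes each passed a test in the chronic corpus callosum. They come from RefSeq (GRCm38.p6), which had a promoter for 8 of the 9 members, and end at the base before the annotated start. Capitals mark matches on either strand to the SOX core ACAAAG or ACAATG, the MYRF motif CTGGCAC or CTGGTAC, or the Sp motif GGGCGG. SOX10 and MYRF are transcription factors of oligodendrocytes, and Sp factors bind GC-rich promoters of many genes.
Hapln2, chr3:88027584-88027761, minus strand: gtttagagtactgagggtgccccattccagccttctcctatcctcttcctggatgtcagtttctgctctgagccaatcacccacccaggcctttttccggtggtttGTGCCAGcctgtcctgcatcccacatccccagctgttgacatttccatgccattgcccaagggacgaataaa
Tnr, chr1:159523519-159523768, plus strand: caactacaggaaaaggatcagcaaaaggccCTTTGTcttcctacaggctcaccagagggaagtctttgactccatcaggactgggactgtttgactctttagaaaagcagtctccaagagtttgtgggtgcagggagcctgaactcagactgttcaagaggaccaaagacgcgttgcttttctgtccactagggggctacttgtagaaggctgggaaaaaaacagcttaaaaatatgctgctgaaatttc
Bcan, chr3:88000357-88000606, minus strand: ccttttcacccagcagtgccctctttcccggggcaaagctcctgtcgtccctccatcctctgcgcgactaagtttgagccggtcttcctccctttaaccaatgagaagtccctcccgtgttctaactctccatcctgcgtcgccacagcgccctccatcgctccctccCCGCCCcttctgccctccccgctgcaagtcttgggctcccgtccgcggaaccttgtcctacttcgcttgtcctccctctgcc

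In the 250 bases before each start, *Hapln2* was the only one of the 8 members searched to hold CTGGCAC, which was found before 4.19% of 32851 RefSeq starts. It also held ACAATG (10.7% of starts) at position −35 from the RefSeq start, in a stretch not printed because another annotation places it within the gene. *Tnr* held ACAAAG, as did 16.5% of starts, and *Bcan*, *Acan*, *Ncan*, *Vcan* and *Tnc* held GGGCGG, as did 32.7%. None of the 8 held CTGGTAC (1.83% of starts), and no motif overlapped a different one, although 2 of the GGGCGG matches of *Acan* overlapped each other. A match here describes letters and does not show that a factor binds.

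Several features of the libraries bear on all values. Sex-linked genes went against the label or were mixed in 8 of 13 hippocampal libraries and 1 acute library. The 12-week replicate 1 and naive replicate 3 of the hippocampus shared 252 identical values, the only 1 of 780 pairs of chronic libraries that shared any. By the methods, chronic corpus callosum and hippocampus were sequenced on another instrument and at another read length than cortex (the labels name 1 instrument for all), so instrument and region cannot be told apart. The deposited values were log2 scaled with no counts, so depth is unknown, and chronic values were centred per gene, so a chronic value has meaning only against other libraries. All differences below are log2 differences ± standard error from limma, with p adjusted over all genes tested.

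In the chronic corpus callosum *Hapln2* fell and *Tnr* rose at 12 weeks, while the other 7 members did not pass the test. These were 2 of 9 members called, against 18.7% of all 17054 genes. During recovery *Hapln2* rose again above its 12-week level, whereas *Tnr* stayed near it and above the naive level in each recovery group. *Bcan* joined *Tnr* above naive at 12 + 4 and 12 + 12 weeks. Against 12 weeks, 0 members were called at 12 + 4 weeks (background 0.809% of genes), 1 at 12 + 8 weeks (0.756%) and 1 at 12 + 12 weeks (4.22%). Against naive the counts were 2 at 12 + 4 weeks (13.7%), 1 at 12 + 8 weeks (18.9%) and 2 at 12 + 12 weeks (16.2%).

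With 2 or 3 libraries a group, values that do not overlap were common among all genes. In corpus callosum the 12-week and naive libraries did not overlap for 5 of 9 members, against 49.9% of genes. Recovery groups were apart from 12 weeks for 6 members at 12 + 4 weeks (53% of genes), 3 at 12 + 8 weeks (30.5%) and 3 at 12 + 12 weeks (50.9%), and from naive for 4 (44.5%), 3 (36.4%) and 3 (43.1%). In hippocampus the count was 3 at 12 weeks against naive (22.1%) and 5 at 12 + 12 against 12 weeks (45.3%), and in cortex 2 (12.6%) and 2 (38.3%). Beside these shares, lack of overlap is given below as a description of single genes.

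**Figure D1:**
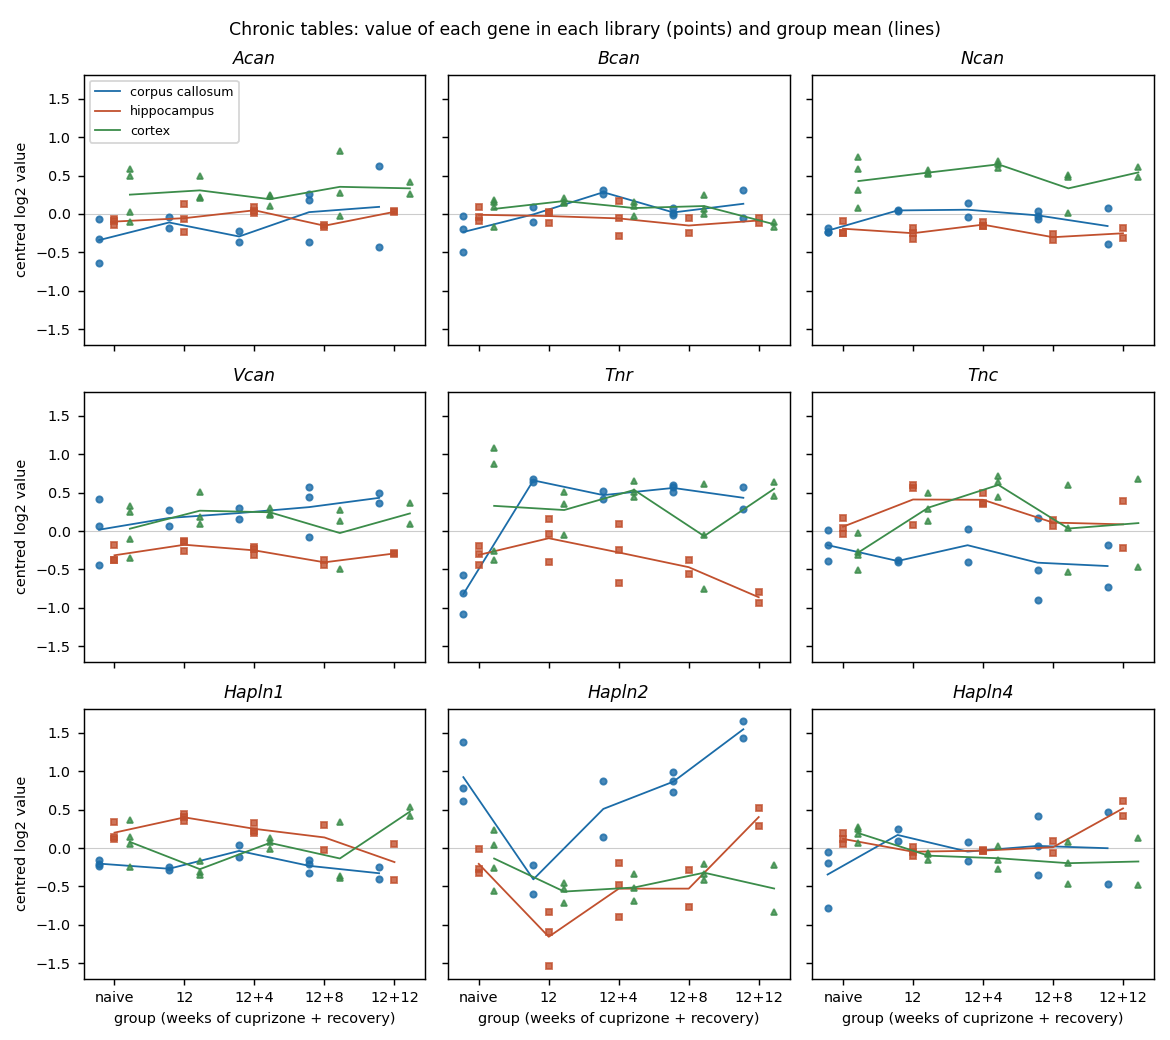
Centred log2 value of each of the 9 genes (vertical axis) in the 40 chronic libraries, by group of weeks of cuprizone and recovery (horizontal axis), region in color, with points for libraries and lines through group means. *Hapln2* dips at 12 weeks in corpus callosum (−0.22 and −0.60) and hippocampus (−0.83, −1.54 and −1.10), and *Tnr* of corpus callosum is low in the naive libraries alone (−1.08 to −0.57).

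The hippocampus and cortex gave fewer calls. At 12 weeks against naive 0 of 9 members passed in the hippocampus (background 0.0176%) and 0 in the cortex (0.956%). At 12 + 12 weeks against 12 weeks *Hapln2* rose and *Hapln1* fell in the hippocampus, 2 members called against 2.57% of genes. In the cortex *Hapln1* rose over the same interval, 1 member against 4.69% of genes. No member was called in the hippocampus at 12 + 4 or 12 + 8 weeks against 12 weeks (0.041% and 0% of genes) or in any recovery group against naive (0%, 0% and 0.106%). In the cortex none was called at 12 + 4 or 12 + 8 weeks against 12 weeks (0.0528% and 0.123%) or against naive (0.0117%, 0% and 0.229%).

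Among the lecticans, *Bcan* was the only one called in the chronic course, in corpus callosum and against naive libraries only. Against 12 weeks its callosal recovery differences of 0.29, 0.03 and 0.14 were not called. Brevican is the smallest core protein of the family and a main lectican of the adult brain. In naive corpus callosum its centred values were −0.19, −0.49 and −0.02, at 12 weeks 0.10 and −0.11, at 12 + 4 weeks 0.26 and 0.31, at 12 + 8 weeks −0.02, 0.01 and 0.07, and at 12 + 12 weeks −0.05 and 0.31. The 12 + 4 week libraries lay above every naive library, and the 12 + 12 week group overlapped the naive group. *Bcan* rose 1.43-fold over naive at 12 + 4 weeks (0.52 ± 0.13, limma adjusted p = 0.00847) and 1.29-fold at 12 + 12 weeks (0.37 ± 0.13, adjusted p = 0.0469), with 0.23 ± 0.13 at 12 weeks (adjusted p = 0.221) and 0.26 ± 0.11 at 12 + 8 weeks (adjusted p = 0.118). Without naive replicate 2, its lowest library, the 12 + 4 week difference was 0.39 (adjusted p = 0.0545) and that at 12 + 12 weeks 0.24 (adjusted p = 0.233). Leaving out either 12 + 4 week library also ended that call (adjusted p = 0.0705 and 0.0884), and without 12 + 12 week replicate 2 that difference was 0.19 (adjusted p = 0.485). In all, 6 of 14 alternatives ended the 12 + 12 week call, among them callosal libraries alone (adjusted p = 0.104), sex as a covariate (0.0534), no filter (0.0524) and leaving out naive replicate 1 (0.059).

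*Acan*, *Ncan* and *Vcan* passed no test over time in any region as fitted. *Acan* at 12 + 12 weeks against naive in corpus callosum (0.43 ± 0.23, adjusted p = 0.213) was called without 12 + 12 week replicate 1 (0.96, adjusted p = 0.0255). With library weights *Acan* was called at 12 + 8 weeks against naive in corpus callosum (0.50) and against naive and 12 weeks in cortex (0.61 and 0.45), *Ncan* in corpus callosum at 12 and 12 + 4 weeks against naive (0.27 and 0.28), and *Vcan* there at 12 + 8 weeks (0.36), with adjusted p from 0.00882 to 0.0423. *Ncan*, whose protein is cleaved in the adult brain, had values of −0.18, −0.24 and −0.23 in naive corpus callosum and 0.04 and 0.05 at 12 weeks. These groups did not overlap, and the difference of 0.26 ± 0.14 was not called (adjusted p = 0.196). *Acan*, the lectican of perineuronal nets, differed by 0.23 ± 0.23 and *Vcan* by 0.15 ± 0.21 (adjusted p = 0.549 and 0.675). In hippocampus and cortex the 12-week differences of these 3 genes ranged from −0.06 to 0.23.

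The tenascins parted from one another. *Tnr* in the corpus callosum had naive values of −0.81, −0.57 and −1.08. It stood at 0.64 and 0.68 at 12 weeks, 0.52 and 0.42 at 12 + 4 weeks, 0.57, 0.60 and 0.51 at 12 + 8 weeks, and 0.58 and 0.29 at 12 + 12 weeks. All 9 libraries of cuprizone-fed mice were above all 3 naive libraries. *Tnr* thus rose 2.79-fold at 12 weeks (1.48 ± 0.32, limma adjusted p = 0.00232), with 1.29 ± 0.32, 1.38 ± 0.29 and 1.25 ± 0.32 in the 3 recovery groups against the same naive libraries (adjusted p = 0.00942, 0.00198 and 0.00988). Against 12 weeks its recovery differences were −0.19, −0.10 and −0.23 (adjusted p from 0.843 to 0.998). The call at 12 weeks held under each of 14 alternatives (1.19 to 1.74), while those at 12 + 4 and 12 + 12 weeks were lost without either 12 + 4 week library (adjusted p = 0.096 and 0.0693) and without 12 + 12 week replicate 1 (adjusted p = 0.0976).

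Other measures moved with *Tnr*. Its transcript is long (12203 exonic bases), and across all genes the 12-week difference in the corpus callosum rose with exon length (Spearman correlation 0.40), as it did in the 3 recovery groups against naive (0.35 to 0.46). Of 5 nuclear-retained RNAs 4 rose at 12 weeks, among them *Malat1* by 1.83 ± 0.29 and *Meg3* by 1.28 ± 0.36 (limma adjusted p = 0.000129 and 0.0131), and the list's mean ranged from −0.78 to −0.25 in naive and 0.39 to 0.55 in 12-week libraries. In single callosal libraries the Spearman correlation of deviations with exon length was −0.39 to −0.28 in naive and 0.22 to 0.24 at 12 weeks. In the callosal recovery libraries it was 0.06 to 0.39. After correction of each library for length and GC content *Tnr* differed by 1.19 ± 0.21 (adjusted p = 0.000418). Neuronal markers showed no call (0 of 6, median 0.14), nor did astrocyte markers (0 of 6, median −0.22). The mean of 6 striatal markers, for neighboring tissue, was −0.79 to 1.58 in naive and −0.73 to −0.11 in 12-week callosal libraries. At 12 + 8 weeks it was −0.53 to 1.80. The parts of transcript length, cell composition, neighboring tissue and the nuclear-retained RNAs in the rise of *Tnr* were not tested.

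In the other regions *Tnr* gave no such step. The 12-week difference was 0.22 ± 0.29 in the hippocampus (adjusted p = 1) and −0.05 ± 0.27 in the cortex (adjusted p = 0.944). Naive cortex was spread from −0.38 to 1.08 over 4 libraries, which spans the 12-week values of −0.05 to 0.51. The 12-week effect in corpus callosum exceeded that in cortex by 1.54 ± 0.42 (limma adjusted p = 0.0475, background 2.4% of genes), and that in hippocampus by 1.26 ± 0.43 (adjusted p = 0.118, background 1.54%). The second was called with the libraries of these regions alone (adjusted p = 0.00423), library weights (1.08, adjusted p = 0.00386) and quantile normalization (1.39, adjusted p = 0.0328). The call against cortex was close to the threshold and was lost when any of 9 libraries was left out singly (adjusted p from 0.055 to 0.203). It was also lost with callosal and cortical libraries alone (adjusted p = 0.144), with no filter (0.0547) and with a replicate block (0.206). At 12 + 12 weeks the hippocampal *Tnr* values, −0.79 and −0.93, lay below all 12-week values (−0.40, 0.16 and −0.04), with a difference of −0.77 ± 0.32 that was not called (adjusted p = 0.236) except with hippocampal libraries alone (adjusted p = 0.0325) or library weights (−0.86, adjusted p = 0.00483).

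*Tnc*, the tenascin linked to injury, was not called in any chronic comparison as fitted. In corpus callosum its 12-week difference was −0.21 ± 0.29, in hippocampus 0.35 ± 0.26 and in cortex 0.58 ± 0.24 (adjusted p = 0.679, 1 and 0.213). The cortical 12-week values of 0.29, 0.50 and 0.12 lay above the naive values of −0.27, −0.51, −0.02 and −0.32. At 12 + 4 weeks the cortical difference from naive was 0.88 ± 0.24 (adjusted p = 0.182), and at 12 + 8 weeks 0.31 ± 0.24 (adjusted p = 0.778), or 0.87 with library weights, which was called (adjusted p = 0.00313).

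**Figure D2:**
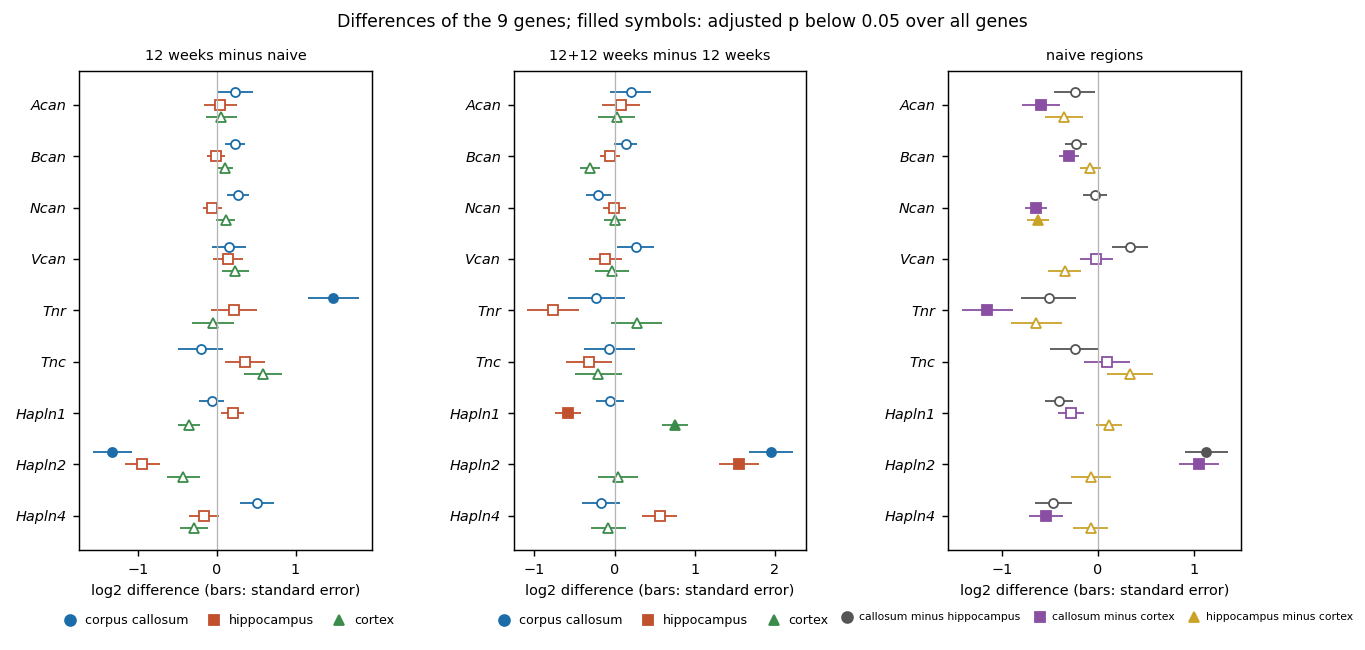
Log2 difference of each gene (horizontal axis) with its standard error, in 12 weeks minus naive, 12 + 12 weeks minus 12 weeks, and between naive regions, with filled symbols for adjusted p under 0.05 over all genes. *Tnr* (1.48) and *Hapln2* (−1.33) are the filled symbols at 12 weeks, and *Hapln1* lies at −0.58 in hippocampus and 0.75 in cortex at 12 + 12 weeks.

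Of the link proteins *Hapln2* moved most. In corpus callosum its values were 1.38, 0.78 and 0.61 in naive libraries and −0.22 and −0.60 at 12 weeks. They were 0.88 and 0.14 at 12 + 4 weeks, 0.88, 0.73 and 0.99 at 12 + 8 weeks, and 1.44 and 1.66 at 12 + 12 weeks. Every recovery library lay above both 12-week libraries, and the 12 + 12 week libraries lay above all naive ones. *Hapln2* fell 2.52-fold at 12 weeks (−1.33 ± 0.25, limma adjusted p = 0.000664), a call kept under each of 14 alternatives (−1.52 to −1.11).

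Recovery of *Hapln2* in corpus callosum was graded in its means. Against 12 weeks it differed by 0.92 ± 0.27 at 12 + 4 weeks (adjusted p = 0.111), rose 2.42-fold at 12 + 8 weeks (1.27 ± 0.25, adjusted p = 0.00783) and rose 3.88-fold at 12 + 12 weeks (1.96 ± 0.27, adjusted p = 4.24e-05). Without 12 + 4 week replicate 2 the first of these was 1.28 (adjusted p = 0.0394). Differences between the recovery groups themselves were not tested. The 12 + 8 week call was lost with callosal libraries alone (adjusted p = 0.293), without 12 + 8 week replicate 3 (1.21, adjusted p = 0.0571), and without 12-week replicate 1 (1.46, adjusted p = 0.06) or 2 (1.09, adjusted p = 0.22). Against naive the recovery differences were −0.41 ± 0.25, −0.06 ± 0.22 and 0.62 ± 0.25 (adjusted p = 0.294, 0.90 and 0.0839), the last called without naive replicate 1 (0.85, adjusted p = 0.026).

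Oligodendrocyte genes moved alongside. Of 10 mature oligodendrocyte markers 9 fell at 12 weeks in corpus callosum (median −1.20, against 0.0006 over all genes), among them *Mbp*, for myelin basic protein, by 1.68 ± 0.24 and *Mobp* by 1.69 ± 0.24 (limma adjusted p = 5.14e-05 and 4.63e-05). The mean of the list was −0.28 to −0.27 in the 12-week libraries, 0.42 to 1.51 in naive ones and 1.04 to 1.31 at 12 + 12 weeks. In bulk tissue fewer oligodendrocytes and less RNA per oligodendrocyte cannot be told apart. Of 8 progenitor markers 2 fell, with a median of −0.20.

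In the hippocampus *Hapln2* was low at 12 weeks and high at 12 + 12 weeks. Its values were −0.33, −0.02 and −0.27 in naive libraries, −0.83, −1.54 and −1.10 at 12 weeks, −0.20, −0.49 and −0.90 at 12 + 4 weeks, −0.77 and −0.28 at 12 + 8 weeks, and 0.52 and 0.29 at 12 + 12 weeks. The 12-week group overlapped the 12 + 4 week group and none of the others, and the means at 12 + 4 and 12 + 8 weeks were above 12 weeks by 0.63 each (adjusted p = 0.742 and 0.516) and below naive by differences of −0.32 each (adjusted p = 1 and 0.998). The 12-week difference of −0.95 ± 0.22 was not called (limma adjusted p = 0.326) except with library weights (−1.09, adjusted p = 3.1e-05). The 12 + 12 week rise over 12 weeks was 2.95-fold (1.56 ± 0.25, adjusted p = 0.000768). Of the oligodendrocyte markers 8 of 10 rose over that interval (median 1.27). Without the 8 libraries of mixed sex-linked genes, which leaves 1 library in each of these groups, the difference was 1.83 (adjusted p = 0.139), and without 12 + 12 week replicate 1 it was 1.44 (adjusted p = 0.0628). Without the 2 libraries that share values it stayed called.

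Cortical *Hapln2* changed little. Naive values were −0.56, 0.04, 0.23 and −0.26 and 12-week values −0.45, −0.54 and −0.71, a difference of −0.43 ± 0.21 with overlapping groups (adjusted p = 0.294). At 12 + 12 weeks it differed from 12 weeks by 0.04 ± 0.25 (adjusted p = 0.95). In a comparison added after the values were seen, the 12 + 12 week rise of *Hapln2* was larger in corpus callosum than in cortex by 1.92 ± 0.37 (limma adjusted p = 0.00534, background 3.88% of genes) and larger in hippocampus than in cortex by 1.52 ± 0.35 (adjusted p = 0.0131, background 5.99%). The second was lost without hippocampal 12 + 12 week replicate 1 (1.40, adjusted p = 0.125) or cortical 12 + 12 week replicate 2 (1.21, adjusted p = 0.0716). Without the libraries of mixed sex-linked genes it was 1.79, with 1 library left in each hippocampal group compared. Between corpus callosum and hippocampus the same test gave 0.40 ± 0.37 (adjusted p = 0.929, background 0.111%).

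*Hapln1*, which stabilizes perineuronal nets, moved in opposite directions in the gray matter regions late in recovery. At 12 weeks it differed from naive by −0.07 in corpus callosum and 0.20 in hippocampus, with neither called. Cortical means were 0.08 in naive and −0.28 in 12-week libraries, with no call. In the hippocampus values of 0.36, 0.44 and 0.40 at 12 weeks were followed by −0.42 and 0.05 at 12 + 12 weeks, and *Hapln1* fell (−0.58 ± 0.16, limma adjusted p = 0.0463). In the cortex values of −0.16, −0.35 and −0.31 were followed by 0.54 and 0.41, and it rose 1.68-fold (0.75 ± 0.16, adjusted p = 0.011). The groups did not overlap in either region, and the added test of the difference between the regions gave −1.33 ± 0.23 (adjusted p = 0.00315). Across genes the 12 + 12 against 12 week difference followed exon length in opposite directions (Spearman correlation −0.26 in hippocampus and 0.25 in cortex), and with the correction for length and GC content *Hapln1* differed by −0.46 and 0.52 (adjusted p = 0.0258 and 0.019).

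Medians of tissue marker lists also moved between the same groups. In the hippocampus the 5 hippocampal markers had a median of −0.94 at 12 + 12 against 12 weeks, with 1 lower, and in the cortex the 6 striatal markers had a median of −1.48 and the 5 hippocampal markers 0.79, with 0 called. Their part in the *Hapln1* differences was not tested. The hippocampal fall rested on few libraries: it was −0.35 without 12 + 12 week replicate 1 (adjusted p = 0.728), and leaving out any 12-week library also ended the call (adjusted p from 0.0775 to 0.128). Without the 2 libraries that share values the limma adjusted p was 0.0919. The hippocampal call was also lost with sex as a covariate (adjusted p = 0.0518), no filter (0.0541) and a replicate block (0.0685). The cortical rise was lost without 12 + 12 week replicate 1 (0.69, adjusted p = 0.101). It was also lost with cortical libraries alone (adjusted p = 0.164) and with quantile normalization (0.58, adjusted p = 0.0999). The difference between the regions had an adjusted p of 0.0673 without the hippocampal 12 + 12 week replicate 1. Without the libraries of mixed sex-linked genes it was −1.14, with 1 library left in each hippocampal group compared.

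*Hapln4*, the link protein of inhibitory synapses in the cerebellum and brainstem, was not called over time as fitted. In corpus callosum it read −0.78, −0.20 and −0.06 in naive and 0.09 and 0.25 in 12-week libraries, without overlap (0.52 ± 0.22, adjusted p = 0.0948), and at 12 + 12 weeks it differed from naive by 0.34 ± 0.22 (adjusted p = 0.298), or by 0.81 without 12 + 12 week replicate 1 (adjusted p = 0.0393). The 6 markers of fast-spiking inhibitory neurons had a median of 0.01 in that comparison, with 0 called. At 12 + 12 weeks its hippocampal values of 0.61 and 0.42 were above the 12-week range of −0.10 to 0.02 (0.56 ± 0.22, adjusted p = 0.184). With hippocampal libraries alone this difference and that from naive (0.40) were called (adjusted p = 0.00171 and 0.0252). Library weights also called it (0.58, adjusted p = 0.0088), together with the 12-week difference in corpus callosum (0.44, adjusted p = 0.0357) and the cortical 12 + 8 week differences from naive (−0.64, adjusted p = 0.00332) and from 12 weeks (−0.36, adjusted p = 0.028).

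Naive regions differed in 6 of the 9 genes. Relative to cortex, where 43.1% of all genes were called, naive corpus callosum was lower in *Tnr* (−1.15 ± 0.27), *Ncan* (−0.65 ± 0.12), *Acan* (−0.59 ± 0.20), *Hapln4* (−0.54 ± 0.18) and *Bcan* (−0.30 ± 0.11), with limma adjusted p from 5.52e-05 to 0.0234. *Hapln2* went the other way and was higher by 1.06 ± 0.21 (adjusted p = 0.000161). Against hippocampus 1 member was called, *Hapln2*, higher in corpus callosum by 1.13 ± 0.22 (adjusted p = 0.000442, background 17.7%), and between hippocampus and cortex 1, *Ncan*, lower by 0.62 ± 0.12 in hippocampus (adjusted p = 9.79e-05, background 40.6%). Differences from cortex fell with exon length across genes (Spearman correlation −0.52 for corpus callosum), and after correction for length and GC content *Acan* was no longer called (−0.33, adjusted p = 0.172) and *Vcan*, at −0.01 before, was higher by 0.49 (adjusted p = 0.00333). *Acan* was also lost without naive corpus callosum replicate 1 (limma adjusted p = 0.119) or cortex replicate 4 (adjusted p = 0.065). *Hapln4* was lost without corpus callosum replicate 1 (−0.32, adjusted p = 0.199). *Bcan* was lost without corpus callosum replicate 2 (−0.17, adjusted p = 0.229) or cortex replicates 1 or 3 (adjusted p = 0.0714 and 0.056). Some uncalled differences were called under alternatives. *Hapln1* was lower in corpus callosum than in hippocampus with these regions alone (−0.40, adjusted p = 0.00701) and quantile normalization (−0.47, adjusted p = 0.00917). *Tnr* was lower in hippocampus than in cortex with library weights (−0.73, adjusted p = 0.00475) and quantile normalization (−0.69, adjusted p = 0.026).

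The acute corpus callosum gave levels as well as differences. Per kilobase of exon, on the log2 scale, *Bcan* stood highest in the naive library at 9.77, followed by *Ncan* at 8.27, *Hapln4* at 8.18 and *Hapln2* at 7.99. Below these came *Tnr* (5.33), *Hapln1* (5.12), *Vcan* (4.65) and *Tnc* (4.33), and *Acan* was lowest at 2.72. At 3 weeks *Hapln2* dropped from this order to a level per kilobase of 4.46 to 6.32, within the reach of *Tnr* and *Hapln1* (means 5.51 and 5.47), and *Tnc* (mean 5.09) stood above *Vcan* (4.48). With 1 naive library, neighbors such as *Ncan* and *Hapln4* were too close to be ordered.

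No member passed the test in the acute table, where limma called 0% of 14463 genes for 5 + 1 against 3 weeks, 0% for 3 weeks against naive and 0.00691% for 5 + 1 weeks against naive. At an unadjusted p under 0.05 the counts over all genes were 3496, 663 and 821. With library weights limma called 2544 and 2748 genes in the first 2 of these comparisons. Values are given for the members all the same, since *Hapln2* had the widest range of the 9.

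*Hapln2* read 8.76 in the naive library, 7.10, 5.23 and 5.69 at 3 weeks, and 9.04, 8.05 and 8.46 at 5 + 1 weeks. All 3-week libraries lay below the naive library and below all 5 + 1 week libraries. Against the single naive library the 3-week group was apart in 7 of 9 members, as in 66.8% of genes. The differences were −2.75 ± 0.69 at 3 weeks against naive (adjusted p = 0.458) and 2.51 ± 0.49 at 5 + 1 against 3 weeks (adjusted p = 0.154). With library weights the first was −3.02. The second was called with library weights (2.53, limma adjusted p = 0.0154). It was also called without 5 + 1 week replicate 1 (2.25, adjusted p = 0.0433) and with a replicate block (adjusted p = 0.0179). Acute columns were given to groups by the headers of the study's own copy of the table, and read in the order of the labels the difference was 1.77 ± 0.94 (adjusted p = 1). Over the same groups the oligodendrocyte list had a mean of 8.58 to 10.33 at 3 weeks, 11.64 to 12.03 at 5 + 1 weeks and 11.84 in the naive library, with a median difference of 2.69 at 5 + 1 weeks and 0 of 10 called.

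*Hapln1* read 7.63 in the naive library, 7.84, 8.13 and 7.97 at 3 weeks, and 6.37, 6.98 and 7.23 at 5 + 1 weeks, a difference of −1.12 ± 0.25 (adjusted p = 0.162). *Tnc* read 7.29 in the naive library, 7.69, 8.14 and 8.32 at 3 weeks, and 7.54, 6.99 and 7.12 at 5 + 1 weeks (−0.83 ± 0.23, adjusted p = 0.179). *Bcan* went from 11.24, 11.03 and 11.08 at 3 weeks to 12.57, 11.63 and 11.73 (0.86 ± 0.26, adjusted p = 0.181). *Acan* differed by 0.36 and *Tnr* by −0.72 at 5 + 1 against 3 weeks, with neither called. With library weights *Tnr* was called (−0.90, limma adjusted p = 0.0347). In 6 of 9 members the 3-week and 5 + 1 week groups did not overlap, as for 43.7% of all genes. Without 5 + 1 week replicate 1 *Hapln1* (−0.88), *Bcan* (0.56) and *Tnc* were each called, with adjusted p from 0.0226 to 0.0315.

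Base composition moved with these acute differences. Across genes the 5 + 1 against 3 week difference rose with GC content (Spearman correlation 0.76) and fell with exon length (−0.37), and the trend of single libraries on GC content was −0.68 to −0.59 at 3 weeks and 0.03 to 0.85 at 5 + 1 weeks. After correction for both *Hapln1* differed by −0.26 ± 0.19, *Bcan* by 0.40 ± 0.09, *Tnc* by −0.65 ± 0.20 and *Hapln2* by 1.95 ± 0.42, with adjusted p from 0.0868 to 0.456. *Vcan* turned from −0.46 ± 0.28 to 0.44 ± 0.09 (adjusted p = 0.308 and 0.0831), and *Hapln4* from 0.11 to −0.19. *Ncan* differed by −0.03 before and −0.002 after correction.

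**Figure D3:**
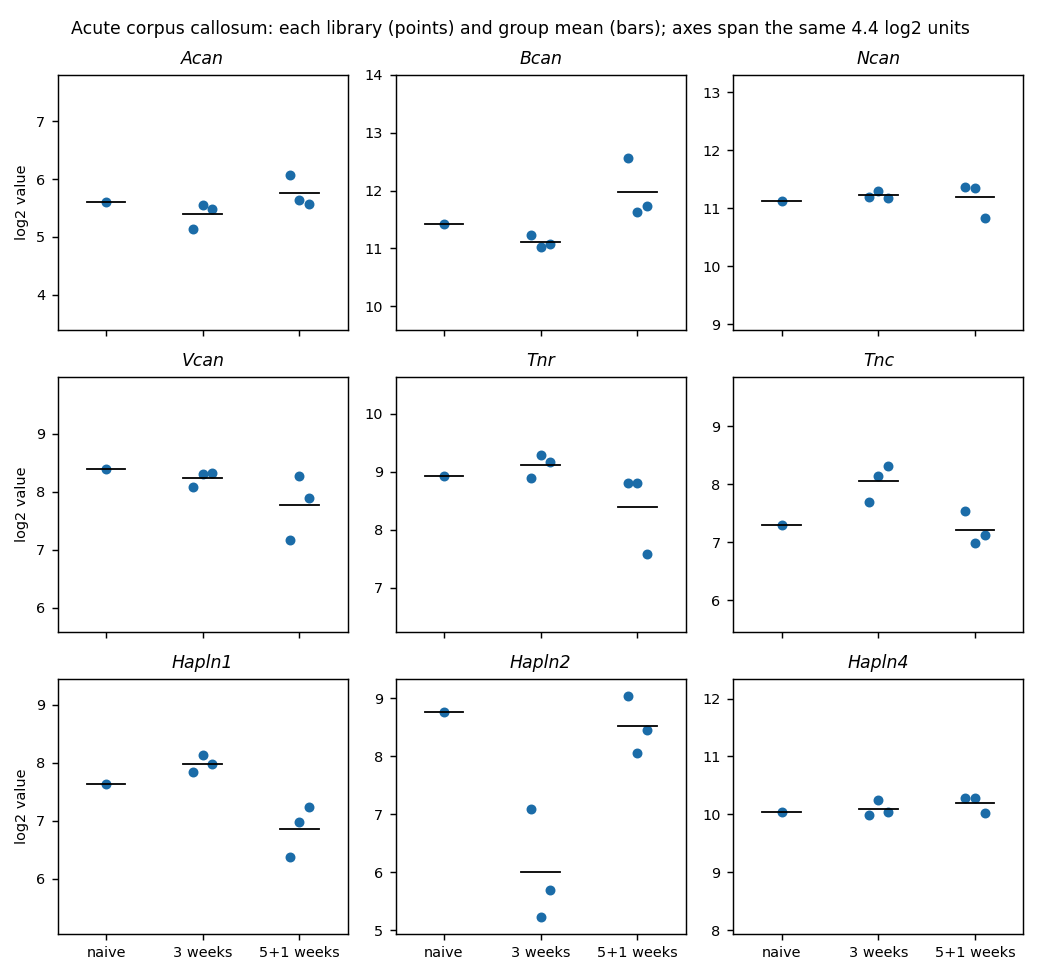
Log2 value of each of the 9 genes (vertical axis, all spanning an equal number of log2 units) in the 7 acute corpus callosum libraries by group (horizontal axis), with points for libraries and bars for group means. *Hapln2* at 3 weeks (5.23 to 7.10) lies below the naive library (8.76) and the 5 + 1 week libraries (8.05 to 9.04).

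Other genes of the pathway are given beside the 18.7% of all genes called at 12 weeks in corpus callosum. At 12 weeks in corpus callosum 1 of 8 tested lectican-cleaving proteases and their inhibitor was called: *Adamts4*, an aggrecanase known to be made by oligodendrocytes, which fell by 1.15 ± 0.23 (limma adjusted p = 0.00103). It rose over 12 weeks by 1.45, 1.17 and 1.31 in the 3 recovery groups (adjusted p = 0.00257, 0.00787 and 0.00164), and in the hippocampus by 1.33 ± 0.23 at 12 + 12 weeks (adjusted p = 0.00134). The median of the 8 at 12 weeks in corpus callosum was −0.06. At 5 + 1 against 3 weeks *Adamts4* differed by 1.73 ± 0.43 (adjusted p = 0.176).

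Of 21 tested genes for chondroitin sulfate synthesis 2 rose and 2 fell at 12 weeks in corpus callosum, with a median of −0.06, where 9.06% of all genes rose and 9.65% fell. *Xylt1*, which adds the first sugar of the chain, rose by 1.07 ± 0.27 and *Chpf2*, a polymerizing factor, by 0.61 ± 0.10 (limma adjusted p = 0.00694 and 0.000164). *Chsy1*, a chain synthase, fell by 0.34 ± 0.10 and *B3galt6*, which builds the linker, by 0.32 ± 0.10 (adjusted p = 0.018 and 0.0262). Among 14 tested receptors of lecticans and tenascins 1 rose, *Ptprs*, the phosphatase that binds chondroitin sulfate, by 0.53 ± 0.10 (adjusted p = 0.000498, list median 0.14). Among 11 other brain proteoglycans and partners 1 rose, *Spock2*, by 0.60 ± 0.14 (adjusted p = 0.00325, list median 0.03), and of 11 hyaluronan genes 0 were called (median −0.002). In hippocampus and cortex 0 genes of these 5 lists were called at 12 weeks.

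The pattern of *Hapln2* over the 40 chronic libraries, with region means subtracted, was closest to *Tppp3* (Pearson r = 0.92), *Mobp* (0.90) and *Cyp27a1* (0.89). With the mean of the oligodendrocyte markers it correlated at 0.865 in corpus callosum (12 libraries), 0.856 in hippocampus (13) and 0.432 in cortex (15). *Tnr* was closest to *Arfgef3* (0.97), *Helz* (0.96) and *Tmem178b* (0.96), with 14579, 14168 and 3752 exonic bases. Its correlation with the length trend of a library was 0.935 in corpus callosum, 0.879 in hippocampus and 0.911 in cortex, and that with the nuclear-retained RNAs 0.887, −0.0932 and −0.129. Libraries of a region share their processing, and these values describe likeness only.

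**Figure D4:**
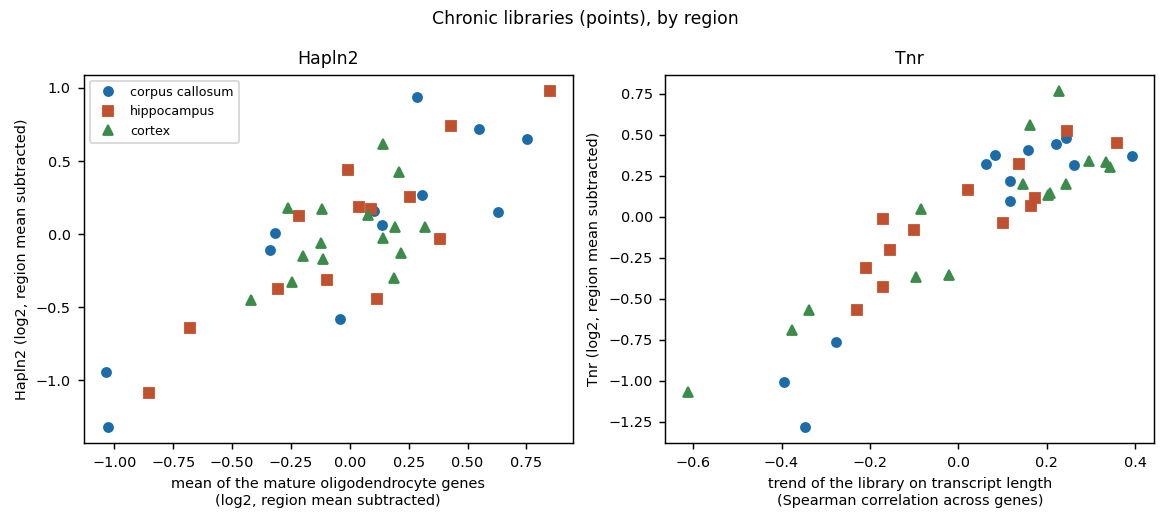
Chronic libraries by region, with region means subtracted: *Hapln2* against the mean of 10 mature oligodendrocyte genes (both log2), and *Tnr* (log2) against the Spearman correlation of each library's deviations with exon length. Points rise together in both panels (Pearson r = 0.815 and 0.898 over 40 libraries), most loosely for *Hapln2* in cortex (0.432).

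Among the members themselves *Tnr* was most like *Ncan* (0.67), *Vcan* (0.63) and *Hapln1* (0.46). The highest values for the others were *Bcan* with *Slc27a1* (0.82), *Ncan* with *Mfap3l* (0.84), *Vcan* with *Tulp4* (0.80), *Acan* with *Bcat1* (0.75), *Tnc* with *Dennd2c* (0.74), *Hapln1* with *Sp3* (0.83) and *Hapln4* with *Lynx1* (0.90). Between neighbors in the genome the coefficient was 0.08 for *Bcan* and *Hapln2*, −0.02 for *Ncan* and *Hapln4*, 0.31 for *Vcan* and *Hapln1* and −0.09 for *Acan* and *Hapln3*.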

How the data were processed

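RNA from microdissected mouse brain tissue was sequenced by the authors after library preparation with a TruSeq kit. By the methods and the submitters' processing notes, reads were mapped to GRCm38/mm10 with TopHat2 2.0.13 and normalized with DESeq2, whose version and the annotation are not given in the sources used here. The deposited values are log2 normalized counts. In the chronic tables the authors' values are also centred per gene over the 3 regions, so depth and level are not given by them, and precision rests on the replicates alone.

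Groups came from the sample labels. The acute columns were assigned by the headers of the study's own copy of that table, which matched all 1999 shared genes in order, while the label order matched the labelled sex in 2 of 7 libraries against 6 of 7. Gene names turned into dates or numbers, 27 in each file, were not used. Genes were kept at a geometric mean of at least 10 in the acute table, and with at most 10 of 40 libraries at the gene's lowest value in the chronic tables.

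Differences between groups were fitted in R 4.3.3 (limma 3.58.1), in 1 fit per experiment on all groups, with Benjamini-Hochberg adjustment over all genes and a threshold of 0.05, and the script was tested on simulated data. Per-library trends and figures used Python 3.11.15 and matplotlib 3.10.9. All 9 members were tested in every main comparison, and the text prints only some of their differences. Of each pathway list up to 4 called genes of largest change are named in the main comparisons, and for likeness the genes of highest Pearson correlation. The members and lists were chosen with earlier results of these data known. Alternatives were other scalings, filters, spread models and covariates, a replicate block, and leaving out each library. A correction for length and GC content, leaving out the 2 hippocampal libraries that share values, and the region differences of recovery were added after values were seen. The depths stated in the methods were not used.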

Additional observations from a re-analysis of the deposited data

Results flagged for a closer look

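Effects that differed between regions by a test of the difference itself stood out for 3 of the 9 genes. The 12-week effect on *Tnr* was higher in corpus callosum than in cortex by 1.54 on the log2 scale (limma adjusted p = 0.0475, background 2.4% of genes). This call was lost with callosal and cortical libraries alone (adjusted p = 0.144) and when single libraries were left out. The tests between 12 and 12 + 12 weeks were added after the values were seen. In them *Hapln2* rose more in corpus callosum than in cortex by 1.92 (limma adjusted p = 0.00534, background 3.88% of genes). It rose more in hippocampus than in cortex by 1.52 (adjusted p = 0.0131, background 5.99%). The effect on *Hapln1* in hippocampus minus that in cortex was −1.33 (adjusted p = 0.00315, same background). The *Hapln2* and *Hapln1* calls between hippocampus and cortex were lost without hippocampal 12 + 12 week replicate 1 (adjusted p = 0.125 and 0.0673). Cortex was sequenced apart from the other regions, and the instrument's part was not tested. Libraries of different regions may also share a mouse, which the fit did not take into account. In the 9 values tested for a library far from its group, those of naive cortex, none stood out.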

How the results depend on the processing

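The calls of *Tnr* and *Hapln2* at 12 weeks in corpus callosum and of *Hapln2* at 12 + 12 weeks there kept direction and threshold under each alternative run. Over all results of single members, 328 alternative values of called results kept the call and 56 lost it, and 73 values of uncalled results gained one. One value turned and was then called: *Vcan* in naive corpus callosum against cortex was 0.49 after the correction for length and GC content. Other uncalled values changed sign without a call, and no called value of a member did. With library weights the members called were 4 at 3 weeks against naive and 5 at 5 + 1 against 3 weeks in the acute table (0 and 0 before), 5 at 12 weeks and 5 in recovery against naive in corpus callosum (2 and 2), 1 at 12 weeks and 4 in recovery against 12 weeks in hippocampus (0 and 2), 3 in recovery against 12 weeks and 4 against naive in cortex (1 and 0), and 3 for region differences at 12 weeks (1). Hippocampal recovery against 12 weeks gave 1 called with sex as a covariate, 1 with no filter, 1 without the 2 libraries that share values and 4 with hippocampal libraries alone, and recovery against naive 1 with these alone. Cortical recovery against 12 weeks gave 0 with cortical libraries alone and 0 with quantile normalization. Region differences at 12 weeks gave 0 with no filter and 2 with quantile normalization. Here and in the paragraphs that follow, member counts stand without the share of all genes called under the same setting. Library weights also raised the number of all genes called in the acute table. These counts therefore describe how calls moved and are not a result about the members.

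Leaving out 1 library gave 0 to 4 members for acute 5 + 1 against 3 weeks, 1 to 4 for corpus callosum recovery against naive, 0 to 1 for cortex recovery against 12 weeks and against naive, 0 to 2 for hippocampus recovery against 12 weeks, 0 to 1 for region differences at 12 weeks and 1 to 2 for those of recovery. In cortex at 12 + 8 weeks against naive *Hapln1* (−0.22) was called without 12 + 8 week replicate 3 (−0.46, adjusted p = 0.0409).

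Within a region, same-numbered libraries of different groups did not deviate together (median correlations −0.00794 to 0.0936). This check did not compare libraries across regions, so it cannot show whether the numbers pair samples there. With a replicate block the members called were 1 for acute 5 + 1 against 3 weeks, 1 for hippocampus recovery against 12 weeks and 0 for region differences at 12 weeks, where *Tnr* gave 1.21 (adjusted p = 0.206). In the acute table limma called 2544 genes with library weights, 1692 without 5 + 1 week replicate 1 and 44 with the block, against 0. Leaving out libraries of mixed sex-linked genes could not be run for hippocampal recovery as a whole, since no 12 + 8 week library was left. With no counts, what depth limits is unknown.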
